A study of Mus musculus with 14 samples.

Results

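The Hox genes encode homeodomain transcription factors that lie side by side in 4 clusters and give cells their position along the body axis. All gene symbols made of Hox, a cluster letter from a to d and a paralog number were taken, which gave 39 genes among the 24345 gene symbols of the RNA-seq tables and the same 39 among the 24394 symbols of the RNA immunoprecipitation tables. The study compared RNA from mouse embryonic stem cells (mESC, a home-made line, wild type, untreated) with primary mouse embryonic fibroblasts (MEF, wild type, untreated). It also compared stem cells with Dppa5a knocked down (Dppa5a_KD, untreated) with control stem cells (KD_control, wild type, untreated). Dppa5a is made in pluripotent cells and encodes a protein that binds RNA through a KH domain. RNA immunoprecipitation (RIP) recovers the RNA bound to a protein with an antibody. It was done in stem cells that overexpress 3Flag-Dppa5a, with an IgG antibody (IgG_RIP, untreated), with a Flag antibody (Flag_RIP, untreated) or with the same Flag antibody in cells given HU (HU_Flag_RIP), an abbreviation the labels do not spell out. Each of the 7 groups had 2 libraries. Nothing in the labels names separate cultures for them, and the p-values therefore reflect only library-to-library spread, which may be technical. The sources used here do not say how Dppa5a was knocked down or whether the knockdown cells were 1 clone. All stem cells were kept on inactivated fibroblasts and passaged on gelatin before harvest, per the labels' protocols.

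Within a cluster the genes are numbered by their likeness across clusters (paralog groups), and this order is also their order on the chromosome. Genes with low numbers act in the hindbrain and upper trunk, genes with middle numbers in the neck and thorax, and genes with high numbers in the lower trunk, the tail and the limbs. In undifferentiated stem cells the clusters are known as targets of Polycomb repression, and retinoic acid and Cdx factors are known to open them from the low-numbered end. Fibroblasts keep a pattern of Hox genes that reflects where in the body they came from.

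In mm10 coordinates the 11 HoxA genes lay on chromosome 6 and the 10 HoxB genes on chromosome 11 from 96194361 to 96368253. The 9 HoxC genes lay on chromosome 15 from 102921131 to 103036852 and the 9 HoxD genes on chromosome 2 from 74668310 to 74765142. HoxB, HoxC and HoxD spanned 173.9, 115.7 and 96.8 kb. Of the 39 genes, 10 overlapped another listed gene, among them Hoxa3, whose listed locus spans Hoxa4, Hoxa5 and Hoxa6, and Hoxd3, whose locus spans Hoxd4. The sources used here do not say whether the libraries kept strand. The overlap is of whole listed loci, and reads in stretches that such genes share, antisense transcripts included, cannot be told apart.

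The RNA-seq tables give FPKM, fragments scaled to transcript length and sequencing depth, which allows levels of different genes to be compared. The confidence bounds deposited with the FPKM correspond to between 494 and 10567 effective fragments on Hox genes per library, so a Hox gene near 0.1 FPKM rests on a handful of fragments. The fibroblast markers were summed to between 80.9 and 209.9 FPKM in the 6 stem cell libraries and to 6807 and 5835 FPKM in the MEF libraries. Most of the sum in stem cells was Fn1. Of the other markers, Thy1, Pdgfra and Pdgfrb stood between 0.603 and 9.50 FPKM in the stem cell libraries. Col3a1, a collagen of fibroblasts, stood between 0 and 0.00493 FPKM there. Of the 8 pluripotency markers, all 8 were called lower in MEF, and Pou5f1 was listed at 0 in both MEF libraries. The MEF and mESC libraries thus carried the markers of their labels, but MEF also held macrophage markers, which summed to 37.7 and 41.0 FPKM in MEF and to 4.30 and 5.67 in mESC. The stem cells of the knockdown experiment differed from mESC in Eif2s3y, a Y-linked gene, which stood at 43.2 and 41.2 FPKM in mESC and was listed at 0 in all 4 libraries of KD_control and Dppa5a_KD. In bulk libraries, fewer cells that express a gene and less RNA per cell cannot be told apart.

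**Figure D1:**
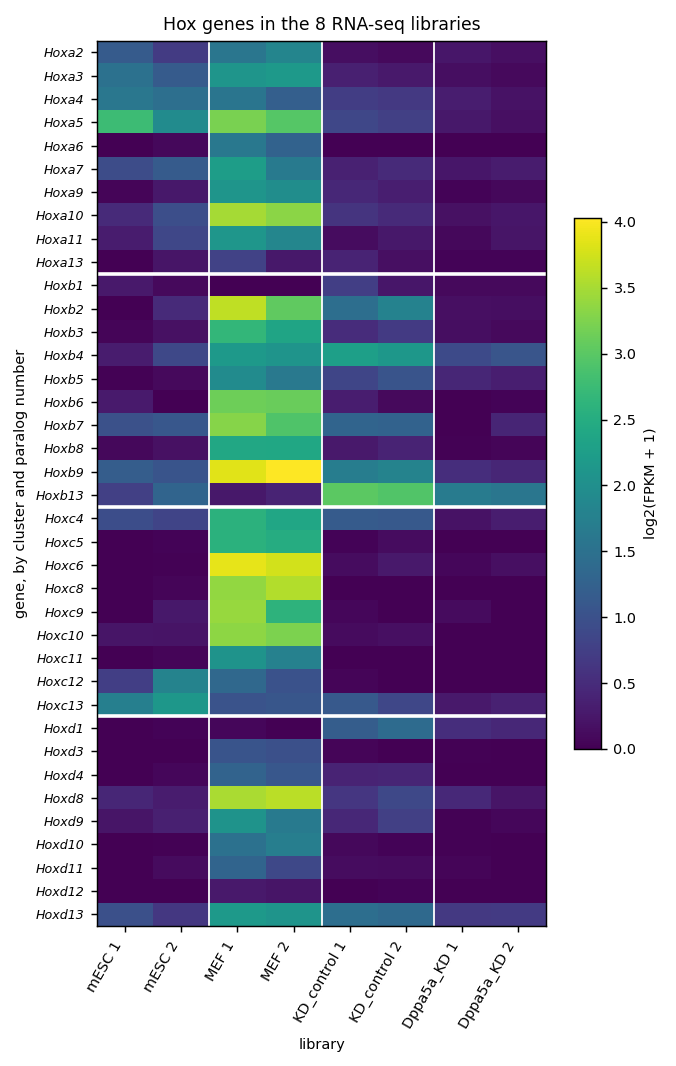
Heat map of log2(FPKM + 1) for 38 of the Hox genes (rows, by cluster and paralog number) in the 8 RNA-seq libraries (columns, 2 per group). Most rows are brightest in the 2 MEF columns, while Hoxb13 is brighter in every stem cell column than in MEF and Hoxd1 is brighter in the KD_control and Dppa5a_KD columns.

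The mESC libraries held little Hox RNA, and most of it came from HoxA. The 39 genes summed to 30.2 and 29.1 FPKM in the mESC libraries, of which HoxA made up 68.9% and 52.8%. Hoxa5, a gene of the neck and thorax and of lung formation, stood at 5.79 and 2.85 FPKM and Hoxc13, a gene of hair and nail formation, at 2.34 and 3.40 FPKM. Both were among the 3 highest Hox genes in both libraries, and they changed places between them. The libraries differed in the tail of low genes: 13 of the 39 were listed at 0 in the first and 3 in the second. At 1 FPKM or more stood 7 genes in the first library and 10 in the second.

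Fibroblasts held 5.67 times as much Hox RNA, spread over all clusters. The sum was 178.6 and 157.1 FPKM in the MEF libraries, with 33 and 32 of the 39 genes at 1 FPKM or more. The mean summed FPKM in MEF was 2.03 times that in mESC for HoxA, 9.60 times for HoxC, 12.0 times for HoxB and 16.4 times for HoxD. By position, the sum of paralog groups 9 and 10 differed most, 19.5 times, and that of groups 4 to 8 differed 8.11 times. The sums of groups 1 to 3 and 11 to 13 differed 2.23 and 1.95 times. These ratios of sums carry no test. They follow the highest genes of each sum and do not give the change of each member. For 32 of the 39 genes both MEF libraries lay above both mESC libraries, against 32.1% of all 18707 genes with any FPKM above 0, and for 4 both lay below, against 39.7%.

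**Figure D2:**
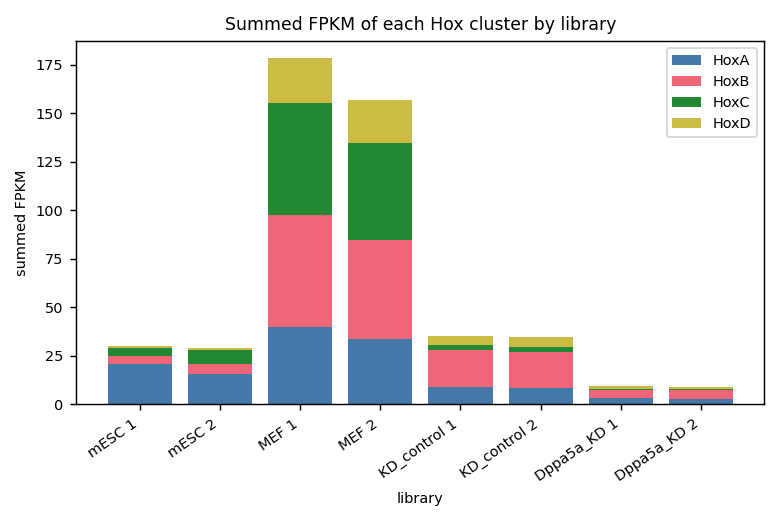
Stacked bars of the FPKM summed over each Hox cluster, by library, with 1 bar per library and no error bars. The 2 MEF bars reach 178.6 and 157.1 FPKM, the mESC and KD_control bars lie between 29.1 and 34.9, and the Dppa5a_KD bars reach 9.22 and 8.87.

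The limma fit of log2(FPKM + 1) took genes whose mean reached 1 FPKM in MEF or in mESC. Of the Hox genes, 35 of the 39 passed the filter, and 29 were called higher and 3 lower in MEF at an adjusted p under 0.05. Of the 12875 genes tested, 26.1% were called higher and 30.6% lower. Most of the 35 passed through MEF, where they are high, so their count is given as a description. Hoxa13, Hoxb1, Hoxd1 and Hoxd12 were not tested. The median log2 difference of the 35 was 1.60, beside -0.15 over all genes tested. Another scaling moved the median of all genes to -0.02, and 29 higher and 3 lower Hox calls were made under it. All log2 differences from FPKM here are on the log2(FPKM + 1) scale, which understates changes of low genes.

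Markers of other cells differed between MEF and mESC too. Of the 3 macrophage markers tested, Lyz2 was called higher in MEF, at 28.1 and 32.6 FPKM against 0 and 0.0332 in mESC (4.94, SE 0.19, limma adjusted p = 7.5e-05), and so was Tyrobp, at 4.07 and 3.33 FPKM against 0 in both mESC libraries. The single skeletal muscle marker tested, Des, was called higher. Of 3 endothelial markers 1 was called higher and 2 lower, likewise of 3 neural progenitor markers, and of 4 epithelial markers 3 were called lower. The part of these markers in the Hox difference was not tested.

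By mean FPKM, the 5 highest Hox genes of the fibroblasts came from all 4 clusters and had paralog numbers from 6 to 10. Hoxb2, ranked 6, had a mean of 9.40 FPKM (SD 3.02), beside 9.66 for Hoxa10, ranked 5. In the first MEF library Hoxb2 was among the 3 highest, so these data do not fix the set of 5. Hoxb9, a trunk gene of HoxB, stood at 13.5 and 15.4 FPKM in MEF and at 1.28 and 1.08 in mESC (2.82, SE 0.19, limma adjusted p = 2.6e-04). Hoxc6, which marks the forelimb level and thorax, stood at 13.7 and 12.6 FPKM in MEF and at 0 and 0.0195 in mESC (3.80, SE 0.17, limma adjusted p = 1.0e-04), the largest log2 difference among the 35 tested. Their MEF levels differed by less than the SD of the Hoxb9 libraries, so their order is not set by these data. Hoxd8, a trunk gene of HoxD, stood at 10.5 and 11.3 FPKM in MEF and at 0.345 and 0.231 in mESC (3.21, SE 0.18, limma adjusted p = 1.5e-04). Hoxc8, which acts in the thorax, stood at 9.40 and 10.9 FPKM in MEF and at 0 and 0.0367 in mESC (3.45, SE 0.18, limma adjusted p = 1.3e-04). Hoxa10, a gene of the lumbar level and the reproductive tract, stood at 10.3 and 9.06 FPKM in MEF and at 0.399 and 0.955 in mESC (2.69, SE 0.23, limma adjusted p = 5.5e-04). In all 5 the libraries of the 2 groups lay far apart, and Hoxc6 and Hoxc8 were at or near 0 in both mESC libraries.

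Further members reached a mean of at least 5 FPKM in MEF, 11 in all. Hoxc10, a gene of the hindlimb level, stood at 9.17 and 8.41 FPKM in MEF and at 0.166 and 0.157 in mESC, and Hoxb6 at 7.78 and 7.66 in MEF and 0.228 and 0 in mESC. Hoxb7 stood at 8.82 and 6.59 FPKM in MEF and at 0.998 and 1.14 in mESC. For these 3 the log2 differences were 3.07, 2.98 and 2.06, all called by limma. Hoxb2, a hindbrain gene, and Hoxc9 differed more between the MEF libraries, at 11.5 and 7.26 FPKM and 9.66 and 5.08 FPKM, but both stood at 0.402 FPKM or less in the mESC libraries. Hoxa5 was the exception among the high genes: its MEF values of 8.35 and 6.81 FPKM lay above the mESC values of 5.79 and 2.85, but the difference was not called (0.74, SE 0.32, limma adjusted p = 0.099).

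**Figure D3:**
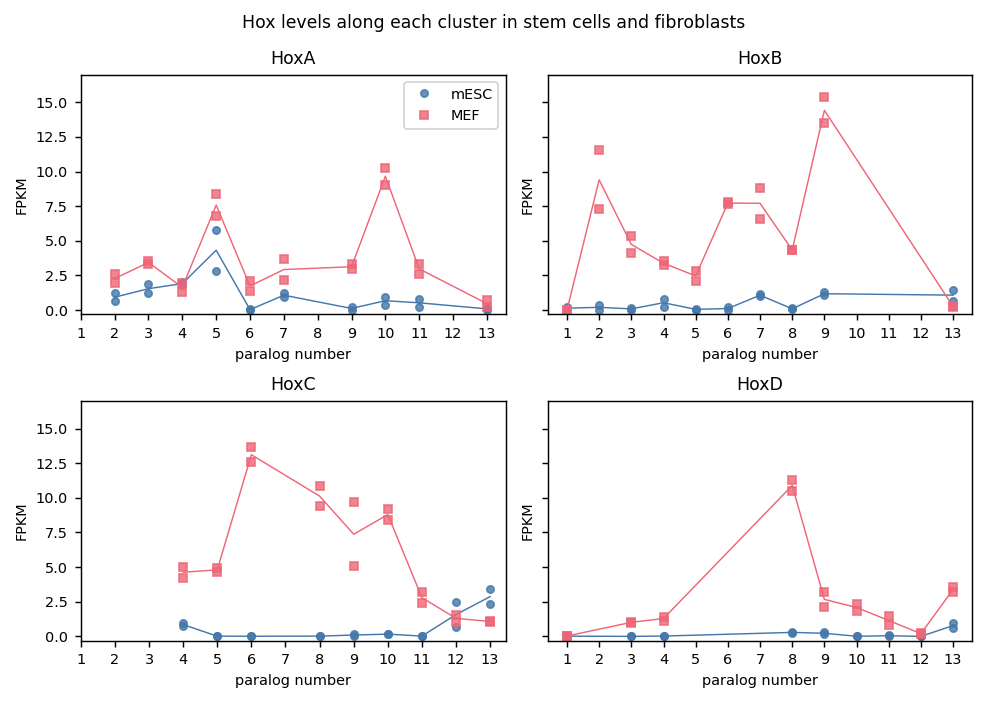
FPKM of 38 Hox genes against their paralog number, 1 panel per cluster, with points for the 2 libraries of mESC (circles) and MEF (squares) and lines through the group means. MEF levels peak between paralog numbers 2 and 10, at 13.5 and 15.4 FPKM for Hoxb9, while mESC points stay under 2.5 FPKM except for Hoxa5 and Hoxc13.

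Among the called genes at lower levels, Hoxb3, Hoxc4 and Hoxc5 stood between 4.10 and 5.38 FPKM in the MEF libraries. Hoxb8 stood at 4.37 and 4.30 FPKM in MEF and Hoxb4 at 3.51 and 3.26. The HoxD genes other than Hoxd8 remained lower: Hoxd9 reached 3.20 and 2.14 FPKM in MEF and Hoxd13, a gene of digits and the tail end, 3.55 and 3.23, while Hoxd12 stayed at 0.216 and 0.171. The 5 HoxC genes from Hoxc5 to Hoxc10 thus ranged from 4.64 to 13.7 FPKM in MEF, whereas Hoxc11 stood at 3.19 and 2.40 FPKM and Hoxc12 and Hoxc13 between 1.03 and 1.57.

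Hoxc13 and Hoxb13 were among the genes called lower in MEF. Hoxc13, at the high-numbered end of HoxC, stood at 1.05 and 1.10 FPKM in MEF against 2.34 and 3.40 in mESC (-0.88, SE 0.20, limma adjusted p = 0.015). Hoxb13, which lies apart from the rest of HoxB and is known for the tail bud and the prostate, stood at 0.196 and 0.320 FPKM in MEF against 0.691 and 1.47 in mESC (-0.70, SE 0.22, limma adjusted p = 0.043). In both genes the libraries of the groups did not overlap. Both calls ended without either MEF library. The Hoxb13 call also ended with no filter on low values, and those of Hoxa2, Hoxa3, Hoxa7, Hoxa11, Hoxb4 and Hoxd11 ended in at least 1 fit with a library left out. Hoxb1 was listed at 0 in both MEF libraries and stood at 0.207 and 0.0711 FPKM in mESC, under the filter. Hoxa4 and Hoxc12 were not called, with log2 differences of -0.15 and -0.08.

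The knockdown libraries held 26.0% of the summed Hox FPKM of their control, and the sum of each of the 4 clusters was lower. Dppa5a itself stood at 5126 and 5417 FPKM in KD_control and at 101 and 358 in Dppa5a_KD (log2 difference -4.78, SE 0.63, limma adjusted p = 0.0088). The 39 Hox genes summed to 34.9 and 34.6 FPKM in KD_control and to 9.22 and 8.87 in Dppa5a_KD. The share that remained was 33.2% in HoxA, 22.8% in HoxB, 22.3% in HoxC and 27.8% in HoxD. By paralog groups it was 25.5% in groups 1 to 3, 24.9% in groups 4 to 8, 17.8% in groups 9 and 10 and 31.0% in groups 11 to 13. The 2 libraries of each group agreed closely in the sum, although Dppa5a differed between the knockdown libraries.

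Of the 36 Hox genes with any FPKM above 0 in the 4 libraries, both knockdown values lay below both control values for 29 and above them for 1, Hoxa2. Over all 18559 such genes in the tables the shares were 43.3% below and 23.8% above. Low genes lay below more often than all genes did: among the 7474 genes with a mean of 0.05 to 5 FPKM over the 4 libraries, 54.2% lay below. Of the 30 Hox genes in that range, 27 lay below. The range was chosen after the values were seen, and the difference between the Hox genes and the other low genes was not tested. The median log2 difference in this range was -0.43 for the Hox genes and -0.15 for all genes.

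**Figure D4:**
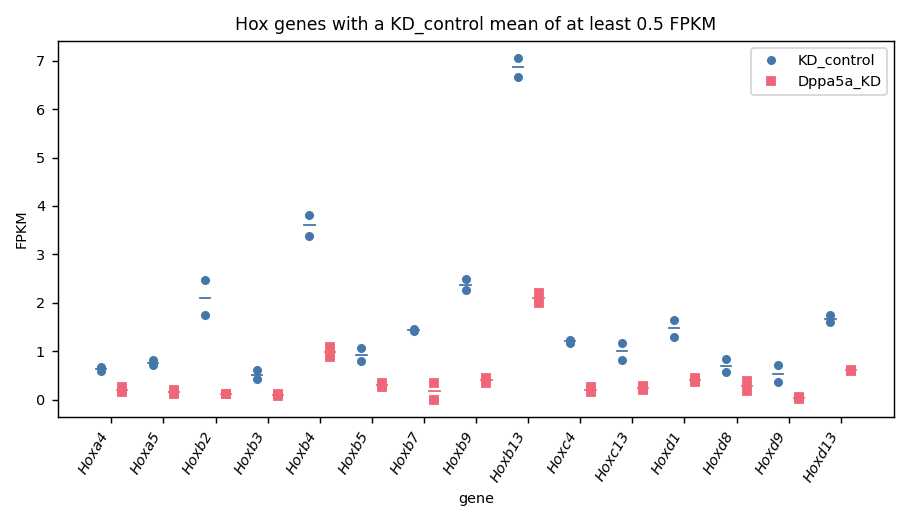
FPKM of 15 Hox genes with a KD_control mean of at least 0.5 FPKM, with points for the 2 libraries of KD_control (circles) and of Dppa5a_KD (squares) and a short line at each mean. Every knockdown point lies below both control points of its gene, with the widest gaps at Hoxb13 (7.06 and 6.67 FPKM against 2.19 and 1.98) and Hoxb4.

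In the limma fit 9 Hox genes passed the filter, 7 of them through the control group alone, and all 9 were called lower. Of the 12345 genes tested, 23.8% were called lower and 13.6% higher. Since most of the 9 passed through the group in which they are high, their count is a description. Median-ratio scaling moved the median of all genes from -0.11 to -0.01 and the called genes from 1678 higher and 2940 lower to 2101 higher and 2353 lower. The 9 Hox calls were all lower under that scaling too.

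Hoxb13 was the highest Hox gene in both groups, at 7.06 and 6.67 FPKM in KD_control and 2.19 and 1.98 in Dppa5a_KD (-1.35, SE 0.11, limma adjusted p = 0.0060). Hoxb4, which acts in the neck and in blood stem cells, stood at 3.82 and 3.38 FPKM in KD_control and 0.871 and 1.09 in Dppa5a_KD (-1.22, SE 0.12, limma adjusted p = 0.0063). Both were among the 3 highest Hox genes in all 4 libraries, and they kept 30.4% and 27.2% of their control levels.

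Other called members kept a smaller share of their control level. Hoxb2 stood at 1.75 and 2.46 FPKM in KD_control and 0.117 and 0.114 in Dppa5a_KD (-1.47, SE 0.14, limma adjusted p = 0.0063), which left 5.47% of the control mean. Hoxb9 stood at 2.25 and 2.49 FPKM in KD_control and 0.444 and 0.343 in Dppa5a_KD (-1.27, SE 0.11, limma adjusted p = 0.0060), which left 16.6%. Hoxb7 stood at 1.46 and 1.41 FPKM in KD_control, was listed at 0 in the first knockdown library and stood at 0.340 in the second (-1.07, SE 0.17, limma adjusted p = 0.012). Hoxc4 stood at 1.23 and 1.18 FPKM in KD_control and 0.148 and 0.253 in Dppa5a_KD (-0.88, SE 0.11, limma adjusted p = 0.0076). In these 4 genes the groups were well apart, although the control libraries of Hoxb2 differed between themselves.

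The HoxD genes among the 9 stood at both ends of their cluster. Hoxd1 stood at 1.29 and 1.65 FPKM in KD_control and 0.439 and 0.369 in Dppa5a_KD (-0.81, SE 0.12, limma adjusted p = 0.011). Hoxd13 stood at 1.74 and 1.59 FPKM in KD_control and 0.588 and 0.614 in Dppa5a_KD (-0.74, SE 0.10, limma adjusted p = 0.0096), which left 36.1%, the most among the 9.

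The other 30 members had control means under 1 FPKM. Of these, 20 had both knockdown values below both control values and 3 (Hoxa6, Hoxc8 and Hoxc11) were listed at 0 in all 4 libraries. Hoxc13 stood just under the filter, at 1.17 and 0.815 FPKM in KD_control and 0.206 and 0.286 in Dppa5a_KD, and Hoxb5 at 0.792 and 1.06 and 0.352 and 0.266. Hoxa5 stood at 0.818 and 0.707 FPKM in KD_control and 0.198 and 0.115 in Dppa5a_KD. In these 3 the groups did not overlap. Hoxa2, the 1 gene with both knockdown values above, stood at 0.105 and 0.0685 FPKM in KD_control and 0.190 and 0.123 in Dppa5a_KD, values that rest on 4 to 9 effective fragments.

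Sequence upstream of the start site was at hand for some of the genes that fell together. RefSeq promoter windows (assembly GRCm38.p6, the build named mm10) matched 22 of the 39 symbols, with 24 windows, each used here as the 250 bases before the start site. The windows of Hoxb4 (chr11:96318017-96318266, plus strand), Hoxc4 (chr15:103034145-103034394, plus strand) and Hoxd1 (chr2:74762730-74762979, plus strand) are shown because these 3 genes fell in the knockdown and their listed loci start at the RefSeq start site. Capitals mark the letters AGGTCA on either strand, the half-site of nuclear receptors such as the retinoic acid receptors.
Hoxb4: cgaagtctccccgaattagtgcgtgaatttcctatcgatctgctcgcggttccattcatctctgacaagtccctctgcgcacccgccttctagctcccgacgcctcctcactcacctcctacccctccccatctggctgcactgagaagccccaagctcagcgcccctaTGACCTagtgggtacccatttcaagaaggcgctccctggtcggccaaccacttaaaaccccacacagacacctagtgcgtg
Hoxc4: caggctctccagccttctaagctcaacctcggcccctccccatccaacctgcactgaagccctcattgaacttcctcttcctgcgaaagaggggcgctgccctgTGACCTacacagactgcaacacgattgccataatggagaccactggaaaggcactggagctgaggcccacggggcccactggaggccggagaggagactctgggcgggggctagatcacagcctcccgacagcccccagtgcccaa
Hoxd1: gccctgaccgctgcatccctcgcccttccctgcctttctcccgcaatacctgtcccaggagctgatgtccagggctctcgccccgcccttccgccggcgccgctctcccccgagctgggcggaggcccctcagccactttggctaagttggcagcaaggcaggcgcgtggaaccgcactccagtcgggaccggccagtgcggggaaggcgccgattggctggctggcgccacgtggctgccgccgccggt
The Hoxb4 and Hoxc4 windows each hold these letters once, on the minus strand, and the Hoxd1 window does not hold them. The Hoxd1 window is richer in CpG, with 24 of these pairs and 71.6% G or C, against 14 pairs and 58.0% for Hoxb4 and 8 pairs and 62.0% for Hoxc4.

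Over the 24 windows, 6 held AGGTCA on either strand (25.0%), against 14.0% of the 32851 windows of all genes. TTTATG, a Cdx site, was in 5 (20.8% against 10.8%). TGATNNAT, the site of Hox proteins with Pbx partners, was in 4 (16.7% against 7.7%). The homeodomain core TAATTA was in 2 (8.3% against 4.8%), which are the 2 windows of the single gene Hoxd11. None of the 4 motifs contains another in full. The windows held between 2 and 35 CpG pairs with a median of 12.5, against 6.0 in all windows, and a median G or C share of 58.6% against 52.4%. Windows of neighbouring genes share their cluster and base composition, and a match is a string of letters, not a shown site.

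The long noncoding RNA Halr1, also named Haunt, went against the Hox genes in the knockdown. Its locus lies outside the HoxA cluster, on chromosome 6 from 52102949 to 52113684, and it is known as a regulator of HoxA in stem cells. Halr1 stood at 10.5 and 10.3 FPKM in KD_control and 37.8 and 35.4 in Dppa5a_KD (1.72, SE 0.10, limma adjusted p = 0.0060), while the HoxA genes summed to 8.95 and 8.23 FPKM in KD_control and to 3.05 and 2.65 in Dppa5a_KD. In mESC it stood at 28.6 and 21.0 FPKM, beside a HoxA sum of 20.8 and 15.3, and in MEF at 0.111 and 0 FPKM, beside 39.6 and 33.7. Halr1 was therefore the highest where HoxA was lowest, but over the 4 groups the order was not the reverse throughout, since mESC held more of both than KD_control. Of the 20 noncoding RNAs listed for the clusters, 16 were in the tables and 2 passed the filter in the knockdown. Halr1 was called higher and none lower. Mira, between Hoxa6 and Hoxa7, was listed with 6.29 and 10.9 FPKM for the MEF libraries, 4.60 and 1.41 for the mESC libraries and 0.521 or less in the knockdown experiment.

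Genes beyond the cluster ends were called in both directions in the knockdown, more of them lower. Of 13 flanking genes tested, 2 were called higher and 6 lower, against 13.6% and 23.8% of all genes tested. The largest falls were at low levels on the 2 sides of HoxB. Skap1 stood at 1.76 and 1.55 FPKM in KD_control and 0.0180 and 0.264 in Dppa5a_KD (-1.23, SE 0.15, limma adjusted p = 0.0075). Ttll6 stood at 1.46 and 1.82 and 0.162 and 0.453 FPKM (-1.02, SE 0.16, limma adjusted p = 0.012). Tax1bp1, an autophagy receptor gene beyond HoxA, stood at 17.6 and 18.9 FPKM in KD_control and 45.0 and 30.8 in Dppa5a_KD (0.99, SE 0.20, limma adjusted p = 0.021). Hibadh, a gene of valine breakdown on the same side, stood at 84.9 and 85.0 and 47.5 and 58.4 FPKM (-0.68, SE 0.14, limma adjusted p = 0.022). Calcoco1, beyond HoxC, stood at 37.0 and 35.9 and 23.3 and 26.8 FPKM (-0.53, SE 0.11, limma adjusted p = 0.024). The Evx homeobox genes next to HoxA and HoxD did not pass the filter in any RNA-seq comparison.

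Known regulators of the clusters were called in both directions in the knockdown, where 13.6% of all genes tested were called higher and 23.8% lower. Of 15 retinoic acid pathway genes tested, 9 were called lower and 1 higher, with a median log2 difference of -0.59. Stra8, a retinoic acid response gene of germ cells, stood at 67.8 and 67.5 FPKM in KD_control and 6.95 and 11.8 in Dppa5a_KD (-2.77, SE 0.24, limma adjusted p = 0.0060). Crabp1, which binds retinoic acid in the cytoplasm, stood at 38.0 and 41.7 and 5.69 and 16.4 FPKM (-1.92, SE 0.46, limma adjusted p = 0.031), and differed between the knockdown libraries. Dhrs3, a retinaldehyde reductase, stood at 11.8 and 12.2 and 7.32 and 5.79 FPKM (-0.79, SE 0.14, limma adjusted p = 0.015). Rxra, the partner of the retinoic acid receptors, was the 1 called higher, at 5.29 and 5.23 FPKM in KD_control and 8.44 and 6.98 in Dppa5a_KD (log2 difference 0.47). Cdx1, the 1 ParaHox gene tested and a known activator of Hox genes, was not called: it stood at 31.5 and 34.2 FPKM in KD_control and 31.8 and 36.3 in Dppa5a_KD (0.05, SE 0.12, limma adjusted p = 0.76).

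Among the 12 genes of Polycomb repressive complex 2 tested, 3 were called higher and 2 lower. Epop, listed as E130012A19Rik, an accessory subunit of stem cells, stood at 137 and 131 FPKM in KD_control and 366 and 358 in Dppa5a_KD (1.42, SE 0.13, limma adjusted p = 0.0062). Jarid2, which helps recruit the complex to its targets, stood at 52.8 and 51.6 and 104 and 81.9 FPKM (0.81, SE 0.15, limma adjusted p = 0.017). Ezh1, a catalytic subunit, went down, from 14.3 and 16.2 to 7.12 and 6.45 FPKM (-1.06, SE 0.12, limma adjusted p = 0.0070). Of the 19 genes of Polycomb repressive complex 1, 5 were called lower and 1 higher. Phc1 stood at 323 and 315 FPKM in KD_control and 167 and 147 in Dppa5a_KD (-1.02, SE 0.14, limma adjusted p = 0.010), and Kdm2b, which tethers a variant complex to CpG islands, at 38.4 and 37.2 and 71.4 and 62.6 FPKM (0.81, SE 0.12, limma adjusted p = 0.010). The MLL complexes and H3K27 demethylases, which oppose Polycomb, had 1 call of 12, Ash2l, higher by 0.40 on the log2 scale. In these 3 lists together 5 of 43 genes were called higher (11.6%) and 7 lower (16.3%), both below the shares of all genes. Of the 7 TALE genes tested, which encode the Pbx and Meis partners of Hox proteins, 2 were called higher and 4 lower. Pbx3 stood at 6.23 and 5.94 FPKM in KD_control and 4.29 and 3.66 in Dppa5a_KD (-0.51, SE 0.12, limma adjusted p = 0.029), and Pknox1 was higher by 0.48 on the log2 scale. Of the 7 limb and body position regulators tested, 6 were called lower and none higher.

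Markers of other cells were called in both directions in the knockdown. The fibroblast marker sum was 209.9 and 208.9 FPKM in KD_control and 169.9 and 139.3 in Dppa5a_KD, with 3 of 4 tested markers called lower. Col3a1 stood between 0 and 0.00493 FPKM in these 4 libraries and Col1a1 between 0.405 and 0.775. The single endothelial and skeletal muscle markers tested, Pecam1 and Des, were called lower, and so were 2 of 4 epithelial markers. The single macrophage marker tested, Cd68, was called higher, at 9.97 and 9.83 FPKM in KD_control and 15.0 and 18.4 in Dppa5a_KD (0.70, SE 0.13, limma adjusted p = 0.018), while Tyrobp was listed at 0 in all 4 libraries. Of the 2 neural progenitor markers tested, Sox1 was called higher, at 1.40 and 1.29 FPKM in KD_control and 3.80 and 4.18 in Dppa5a_KD (1.09, SE 0.11, limma adjusted p = 0.0063). Of the 2 markers of the primitive streak tested, Eomes was called higher, at 5.12 and 4.91 FPKM in KD_control and 10.7 and 9.64 in Dppa5a_KD, and 1 was called lower. None of the 8 pluripotency markers was called by limma in either direction, and 1 of them, Zfp42, had an unadjusted p under 0.05. The part of these markers in the Hox difference was not tested.

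In the fibroblasts the same lists were compared with stem cells, where 26.1% of all genes tested were called higher and 30.6% lower. Of 16 retinoic acid pathway genes tested in MEF against mESC, 10 were called higher and 2 lower, and of 8 TALE genes 5 were called higher and 1 lower. Meis1 stood at 9.32 and 8.77 FPKM in MEF and 1.18 and 0.887 in mESC (2.31, SE 0.19, limma adjusted p = 4.5e-04). Of 12 genes of Polycomb repressive complex 2, 9 were called lower and none higher. Jarid2 stood at 2.97 and 3.16 FPKM in MEF and 90.1 and 80.6 in mESC (-4.41, SE 0.20, limma adjusted p = 9.7e-05). Of 19 genes of Polycomb repressive complex 1, 9 were called lower and 6 higher, and of the 12 genes of the MLL complexes and demethylases 8 were called lower. Of 19 limb and body position regulators, 16 were called higher and 1 lower. Prrx1, a gene of limb mesenchyme, stood at 131 and 164 FPKM in MEF and was listed at 0 in both mESC libraries.

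The stem cells that served as controls differed from each other in their Hox genes, although their Hox sums were alike. KD_control summed to 34.9 and 34.6 FPKM and mESC to 30.2 and 29.1, but HoxB made up 53.7% and 53.9% of the sum in KD_control and 12.5% and 18.3% in mESC. Of the 15 Hox genes tested, 6 were called higher and 5 lower in KD_control. Most of the 15 passed the filter only through the group in which they are high, so their count is a description. Among all 12595 genes tested, 26.5% were called higher and 15.0% lower, with a median log2 difference of 0.19. Under median-ratio scaling that median was 0.02, and 4 Hox genes were called higher and 5 lower. For 20 of the 39 genes both KD_control libraries lay above both mESC libraries, against 44.3% of all 18802 genes above 0, and for 9 both lay below, against 26.2%.

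The higher genes were Hoxb13, Hoxb4, Hoxb2, Hoxd1, Hoxb9 and Hoxd13. Hoxb13 stood at 7.06 and 6.67 FPKM in KD_control and 0.691 and 1.47 in mESC (1.94, SE 0.23, limma adjusted p = 0.0095). Hoxb4 stood at 3.82 and 3.38 FPKM in KD_control and 0.236 and 0.826 in mESC (1.61, SE 0.23, limma adjusted p = 0.013). Hoxd1 stood at 1.29 and 1.65 FPKM in KD_control and 0 and 0.0323 in mESC (1.28, SE 0.13, limma adjusted p = 0.0085). Hoxb2 differed by 1.38 on the log2 scale, Hoxb9 by 0.63 and Hoxd13 by 0.59, and the last 2 calls ended under both other scalings and without either KD_control library.

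The lower genes were Hoxa3, Hoxa4, Hoxa5, Hoxa7 and Hoxc13, of which 4 lie in the middle of HoxA. Hoxa5 stood at 0.818 and 0.707 FPKM in KD_control and 5.79 and 2.85 in mESC (-1.54, SE 0.31, limma adjusted p = 0.024). Hoxa3 stood at 0.279 and 0.205 and 1.85 and 1.24 FPKM (-1.03, SE 0.17, limma adjusted p = 0.016). The calls of Hoxa4, Hoxa7 and Hoxc13 ended without either KD_control library, and 7 Hox genes were called without the second one. Cdx1 was higher in KD_control, at 31.5 and 34.2 FPKM against 0.715 and 2.37 in mESC (3.82, SE 0.36, limma adjusted p = 0.0078), and so was Dhrs3 (2.92, SE 0.17, limma adjusted p = 0.0071). Halr1 was lower in KD_control (-1.16, SE 0.20, limma adjusted p = 0.017). Cell line and experiment cannot be told apart in this comparison. The comparisons of mESC with MEF and with KD_control share the mESC libraries, and those of the knockdown and of KD_control with mESC share the KD_control libraries.

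Hox RNA was near the limit of detection in the RIP libraries. All members together held 37 and 27 counts in the IgG_RIP libraries. They held 102 and 52 in the Flag_RIP libraries and 104 and 48 in the HU_Flag_RIP libraries, of library totals from 3472020 to 13033886. As counts per 1000000 outside Rn45s, Rmrp, Rpph1 and Lars2, which take most reads, the IgG_RIP libraries held 52.7 and 32.1. The Flag_RIP libraries held 68.4 and 46.8 on this scale and the HU_Flag_RIP libraries 100.2 and 58.8. The 95% exact intervals (Clopper-Pearson) cover counting error only and ran from 37.1 to 72.6 and from 21.1 to 46.7 for IgG_RIP. For Flag_RIP they ran from 55.7 to 83.0 and from 34.9 to 61.3, and for HU_Flag_RIP from 81.9 to 121.4 and from 43.3 to 77.9. The second Flag_RIP library thus lay within the range of the IgG_RIP libraries. The interval of the first HU_Flag_RIP library lay above both IgG_RIP intervals, and that of the second overlapped both.

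**Figure D5:**
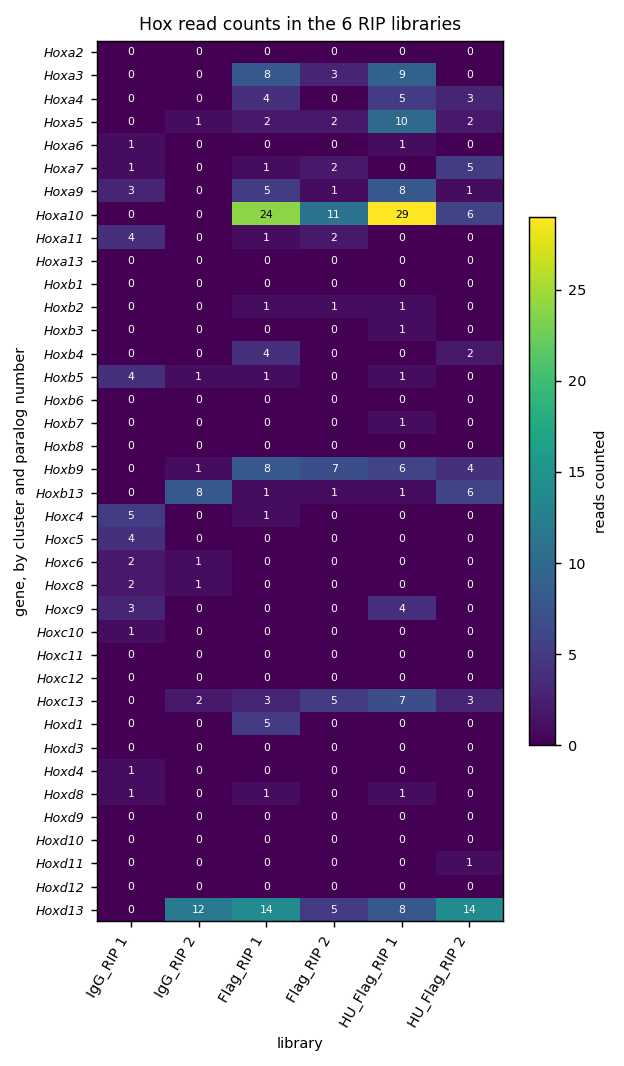
Read counts of 38 Hox genes (rows) in the 6 RIP libraries (columns), with each count printed in its cell and no scaling for library size. Hoxa10 is at 0 in both IgG_RIP columns and at 24, 11, 29 and 6 in the Flag_RIP and HU_Flag_RIP columns, and most other cells hold fewer than 10 counts.

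Only 3 Hox genes, among them Hoxa10 and Hoxd13, had enough counts for the edgeR fit of all 6 libraries, and none of the 3 was called in any of the 3 comparisons. Of the 10473 genes tested by edgeR, 2.32% were called in Flag_RIP against IgG_RIP, 2.86% in HU_Flag_RIP against IgG_RIP and 0.611% in HU_Flag_RIP against Flag_RIP. At an unadjusted p under 0.05, edgeR counted 1607, 1788 and 415 of all genes in these comparisons, of which Hoxa10 was the 1 Hox gene in each of the first 2. DESeq2 called Hoxa10 in HU_Flag_RIP against IgG_RIP and no Hox gene in the other comparisons. Scaling by library size alone moved the split of all edgeR calls in Flag_RIP against IgG_RIP from 121 higher and 122 lower to 64 higher and 2214 lower.

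Hoxa10 held the most counts of any Hox gene in the first Flag_RIP and the first HU_Flag_RIP library. It had 0 counts in both IgG_RIP libraries, as 20 of the 39 members did in all. The Flag_RIP libraries held 24 and 11 counts and the HU_Flag_RIP libraries 29 and 6. For a floor, 3 counts were assumed in each IgG_RIP library. Over it, the mean CPM (counts scaled to library size by TMM) was 3.36-fold higher in Flag_RIP and 4.38-fold higher in HU_Flag_RIP. Hoxa10 passed the filter on low counts through the Flag_RIP and HU_Flag_RIP libraries alone, where it is high. Its folds and tests against IgG_RIP are therefore a description. The libraries stood at 2.33 and 1.37 CPM in Flag_RIP and at 3.85 and 0.983 in HU_Flag_RIP, over a floor of 0.552. The HU_Flag_RIP mean thus rested mostly on its first library. Both folds depend on the TMM factors, 1.45 and 1.60 for IgG_RIP and 0.782 to 0.846 for the other libraries. The edgeR adjusted p was 0.083 for Flag_RIP and 0.054 for HU_Flag_RIP against IgG_RIP. In HU_Flag_RIP against IgG_RIP the call was made in edgeR without the second HU_Flag_RIP library (adjusted p = 0.025). Flag_RIP and HU_Flag_RIP did not differ in Hoxa10 beyond their spread (edgeR log2 difference 0.39, SE 1.01, adjusted p = 1). In the RNA-seq of the stem cells labelled wild type Hoxa10 was low, at 0.399 and 0.955 FPKM in mESC and 0.514 and 0.390 in KD_control.

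The other members gave no common pattern. Hoxd13 counts were 0 and 12 with IgG, 14 and 5 with Flag and 8 and 14 with Flag after HU. Hoxb9 held 0 and 1, 8 and 7, and 6 and 4 counts in that order, and Hoxa3 held 0 and 0, 8 and 3, and 9 and 0. Neither passed the filter on low counts. Hoxb13, the highest Hox gene of KD_control, held 0 and 8 counts with IgG, 1 and 1 with Flag and 1 and 6 with Flag after HU, so a difference was not detectable at this depth. Of the 39 genes, 11 held no count in any of the 6 libraries. From Hoxc4 to Hoxc9 the first IgG_RIP library held between 2 and 5 counts for each of the 5 genes, but the second held 0 or 1. The Flag_RIP libraries held at most 1 for each, and the HU_Flag_RIP libraries 0 apart from 4 for Hoxc9 in the first. Lyz2, the macrophage marker, stood at 498 and 237 counts with IgG, 34 and 33 with Flag and 73 and 199 with Flag after HU. The neural progenitor marker Sox1 lay the other way, at 6 and 20 counts with IgG, 174 and 136 with Flag and 83 and 73 with Flag after HU. The part of other cells in the RIP counts was not tested. Halr1 was not called, with 61 counts in each IgG_RIP library, 71 and 73 with Flag and 101 and 49 with Flag after HU.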

How the data were processed

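Trizol was used for RNA extraction and a NEBNext Ultra kit for the libraries, per the labels. The authors deposited FPKM per gene with confidence bounds for the 8 RNA-seq libraries, per the file headers, and for the 6 RIP libraries whole-number read counts by gene symbol, as the deposited values show. The submitters' processing notes name mm10 and, with no role for each, HTSeq 0.6.1, Cuffdiff 2.1.1, Cufflinks 2.1.1, TopHat2 2.0.8 and CASAVA 2.19. Library totals were 447657 to 585678 in summed FPKM and 3472020 to 13033886 in counts.

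FPKM were summed over the loci of a symbol (280 symbols had several, no Hox gene), 1 symbol marked as failed was left out, and 27 rows of the count tables with dates in place of symbols were left out. Coordinates are the tables' loci counted from 1. FPKM were tested with limma 3.58.1 (limma-trend) on log2(FPKM + 1), 2 groups in each fit, for genes whose mean reached 1 FPKM in a group of the fit. The RIP counts went into edgeR 4.0.16's quasi-likelihood test with all 6 libraries (TMM, filterByExpr) in R 4.3.3. Calls are Benjamini-Hochberg adjusted p-values under 0.05 over all genes tested. The fits were tested on simulated data. Alternatives were other scalings, filters, a pseudocount of 0.1, a 2-fold threshold, other sets of libraries, a replicate block, DESeq2 1.42.0 and leaving out each library. Figures were drawn with matplotlib 3.10.9.

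The members and all gene lists were chosen with earlier results of these data known. All Hox genes could be named; from the other lists, called genes with the largest log2 differences and a mean of at least 5 FPKM in the higher group, up to 4 for each comparison, or for a list with no call the highest. Exceptions chosen after their values were seen are Eif2s3y, Mira, Skap1, Ttll6, Col3a1, Col1a1, Tyrobp, Zfp42, Sox1 and, in the RIP counts, Lyz2. Thy1, Pdgfra and Pdgfrb are further such exceptions. The values of some genes are not reported here, although sums and counts over lists include them.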

Additional observations from a re-analysis of the deposited data

How the results depend on the processing

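The number of Hox genes called in MEF against mESC was 32 and lay between 22 and 31 with a library left out; it was 11 where a mean of 5 FPKM was required. In the knockdown it was 9, all lower, and 9 to 10 with a library left out; it was 20 with no filter on low values, all lower, and 2 where a mean of 5 FPKM was required. In KD_control against mESC it was 11, between 7 and 13 with a library left out, 6 with a 2-fold threshold and 1 where a mean of 5 FPKM was required. In Flag_RIP against IgG_RIP it was 0, and 1 with no filter on low counts and with the replicate block. In HU_Flag_RIP against IgG_RIP it was 0, 1 with DESeq2, with library size alone, with no filter on low counts and with the replicate block, and between 0 and 1 with a library left out. The gene was Hoxa10 each time, with adjusted p between 0.0098 and 0.039 where it was called. In HU_Flag_RIP against Flag_RIP no alternative called a Hox gene, with a library left out included (0 to 0). Of all genes, 4618 were called in the knockdown and 2415 to 9436 with a library left out, 2884 with FPKM rescaled to a common sum, 2992 with all 4 RNA-seq groups in 1 fit, 3023 where a mean of 5 FPKM was required and 1092 with a 2-fold threshold. A fit that leaves a group with 1 library assumes that it varies like the other group.

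No called Hox gene changed its direction under any alternative run; 9 of 32 calls in MEF against mESC, 3 of 9 in the knockdown (all 3 under the 2-fold threshold) and 5 of 11 in KD_control against mESC ended under at least 1. Uncalled genes that changed sign included Hoxc12 in MEF against mESC (0.013 with median-ratio scaling, -0.61 to 0.45 with a library left out) and Hoxa4 (-0.33 to 0.027 with a library left out). In Flag_RIP against IgG_RIP, Hoxd13 changed to 0.48 with the replicate block and lay between -0.98 and 5.92 with a library left out. In HU_Flag_RIP against IgG_RIP, Hoxd13 changed to -0.27 with library size alone and lay between -0.28 and 6.62 with a library left out. In HU_Flag_RIP against Flag_RIP, Hoxa10 lay between -0.92 and 1.03 with a library left out. The cause was not tested.

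Libraries with the same replicate number share only that number in the labels, and whether they were made together is not known. Their deviations from the group means correlated at -0.57 in MEF and mESC, 0.014 in the knockdown and 0.062 in KD_control and mESC. In the RIP comparisons the correlations were -0.013, -0.036 and 0.40, the last in HU_Flag_RIP and Flag_RIP. All are across genes, which are not independent replicates. With the replicate block 32, 9 and 12 Hox genes were called in the RNA-seq comparisons. Other scalings of the Hox sums, chosen after seeing the data, gave 6.22 and 5.61 for MEF over mESC and 0.281 and 0.291 for the knockdown over its control, against 5.67 and 0.260; the 32 and 29 members whose libraries did not overlap in these comparisons stayed 32 and 29 in number. Low counts limit the RIP values and the Hox genes under about 0.5 FPKM.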
